A study of Mus musculus with 8 samples.

Results

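The genes described here are 10 chemokine ligands that microglia can make: Ccl2, Ccl7, Ccl12, Ccl3, Ccl4, Ccl5, Ccl6, Ccl9, Cxcl10 and Cxcl16. They were chosen by name, as the rows of the deposited count table that carry these symbols, and they are 10 of the 35583 genes in that table. Young wild-type mice were injected with plasma protein carrying a dye, and 20 hours later the microglia of their hypothalamus, the brain's own macrophages, were sorted into plasma-positive and plasma-negative cells. Both groups thus came from injected wild-type animals, and the plasma-negative microglia served as the control. There were 4 libraries of each group, made from bulk RNA with Smart-seq2, which reads whole transcripts from little input and does not tag single molecules. The labels do not give the sorting gates, nor whether replicates were separate or pooled animals, so the p-values below measure the spread between these libraries, which may in part be technical.

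Chemokines are small secreted proteins that bind to G protein-coupled receptors and draw leukocytes towards their source. The CC and CXC families are named for the spacing of their first cysteines, and several ligands usually share a receptor. In the brain, microglia are a main source of several of these ligands, which are known for attracting monocytes, T cells and other microglia during inflammation.

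Library totals ran from 2963094 counts (plasma-negative replicate 4) to 21422738, with 9421708 to 20562689 in the plasma-positive group. All 10 markers of microglia on the list used, among them P2ry12 and Tmem119, had more than 3 counts in all 8 libraries. Of these 10, 2 were called higher in plasma-positive cells, Csf1r (log2 change 0.28; edgeR, adjusted p = 0.00489) and Olfml3 (log2 change 0.37; edgeR, adjusted p = 0.00647). A log2 change above 0 was found for 9 of the 10, though as small as 0.01 for Sall1. Over all tested genes, 0.844% were called higher and 50.4% had a log2 change above 0. The part of these marker changes in the ligand results was not tested. Markers of monocytes and neutrophils summed to 1013 CPM in plasma-positive replicate 3 and to between 0.220 and 14.9 CPM in the other 7 libraries. Markers of neurons were highest in plasma-positive replicate 2, at 278 CPM, followed by 64.5 CPM in plasma-positive replicate 1. Markers of oligodendrocytes summed to 157 to 230 CPM in plasma-negative and to 302, 514, 278 and 222 CPM in plasma-positive replicates 1 to 4. None of them was called (edgeR, smallest adjusted p = 0.113, for Cnp), though the groups did not overlap in Cnp. The part of such transcripts in the ligand results was not tested. CPM stands here and below for counts per 1000000 of the library's effective size, after scaling by the trimmed mean of M-values (TMM), an edgeR method that allows for differences in library composition.

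Of the 10 ligands, 2 were called higher in plasma-positive microglia, Ccl12 and Ccl5, and none was called lower. A gene is said to have risen or fallen where edgeR's quasi-likelihood test gave an adjusted p under 0.05, with the Benjamini-Hochberg adjustment made over all 13277 tested genes. That test called 0.844% of all tested genes higher and 0.565% lower in plasma-positive cells. Ccl7 and Cxcl10 were too sparse to pass the filter on low counts and have no test. Ccl5 passed it through the plasma-positive libraries alone, so its call adds nothing to its counts, which are given below. All 4 plasma-positive libraries lay above all 4 plasma-negative libraries in Ccl12, Ccl6, Ccl9 and Cxcl16, which are 4 of the 7 tested ligands with counts in both groups. This held for 5.68% of all tested genes. It also held for Ccl5, which is left out of that comparison because of how it passed the filter. The exons of the 10 ligands add up to 537 to 3045 bases, against a median of 3975 bases over tested genes. Among well-counted genes, shorter ones tended to higher log2 changes, as given below. The part of exon length in this count of ligands was not tested. In bulk RNA, fewer cells making a transcript and less of it per cell cannot be told apart.

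**Figure D1:**
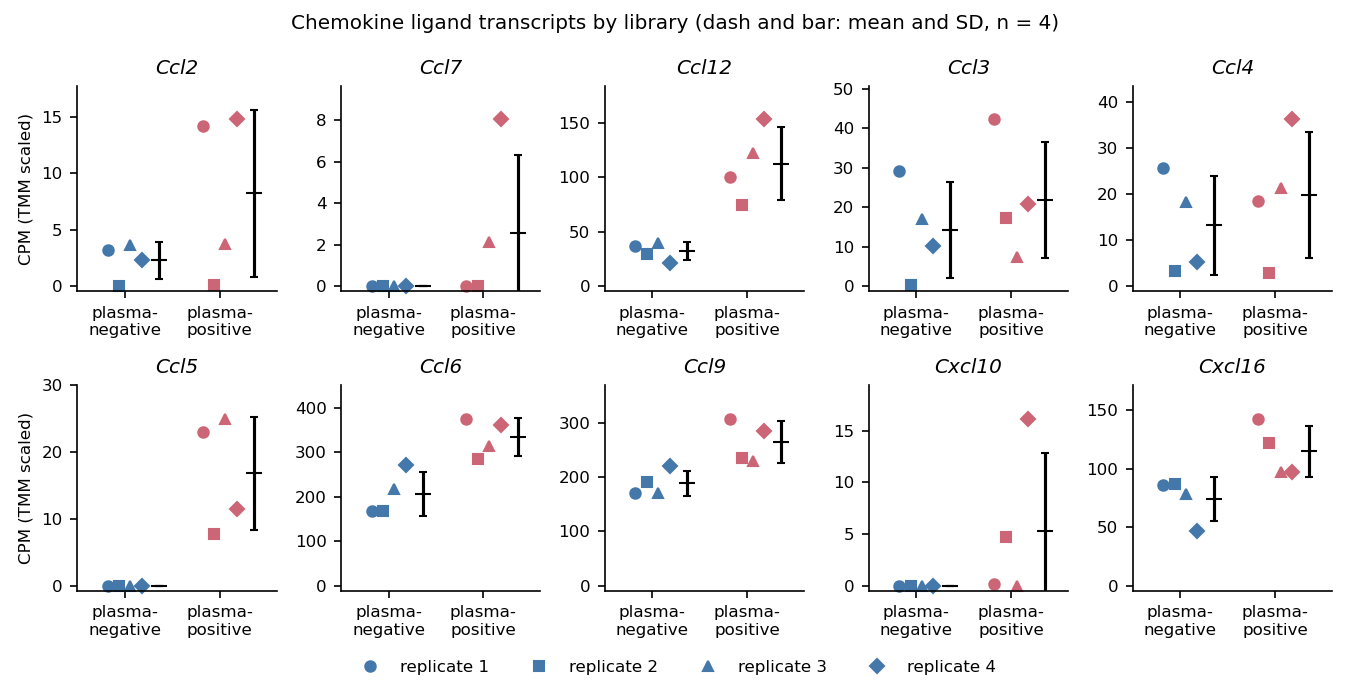
CPM values (TMM scaled) of the 10 ligands on the y axis, each panel with its own linear scale, for the 4 plasma-negative (blue) and 4 plasma-positive (red) libraries, with symbols for replicate numbers and a black dash and bar for mean and SD (bars are clipped at 0). The red points lie above all blue points for Ccl12, Ccl5, Ccl6, Ccl9 and Cxcl16 and mix with them for Ccl2, Ccl3 and Ccl4.

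Promoter sequences were at hand for 5 of the 10 genes (Ccl12, Ccl3, Ccl6, Ccl9 and Cxcl10), from RefSeq on GRCm38.p6. Shown are the 250 bases before the start of 3 of them, 5′ to 3′ on the strand of the gene, because they differ most in the searched motifs and stand for a ligand that rose, a ligand at a high level in both groups and a ligand without a count in the plasma-negative libraries. Capitals mark motif matches.
Ccl12: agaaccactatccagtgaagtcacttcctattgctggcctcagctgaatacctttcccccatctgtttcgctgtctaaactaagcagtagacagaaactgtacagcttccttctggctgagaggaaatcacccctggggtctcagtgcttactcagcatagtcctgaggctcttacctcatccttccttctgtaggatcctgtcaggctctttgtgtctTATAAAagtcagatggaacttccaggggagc
Ccl9: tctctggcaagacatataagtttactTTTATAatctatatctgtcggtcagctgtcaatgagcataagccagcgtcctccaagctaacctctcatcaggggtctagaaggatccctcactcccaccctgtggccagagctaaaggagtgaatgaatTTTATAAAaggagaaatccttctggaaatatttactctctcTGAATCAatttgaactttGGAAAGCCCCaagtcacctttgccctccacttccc
Cxcl10: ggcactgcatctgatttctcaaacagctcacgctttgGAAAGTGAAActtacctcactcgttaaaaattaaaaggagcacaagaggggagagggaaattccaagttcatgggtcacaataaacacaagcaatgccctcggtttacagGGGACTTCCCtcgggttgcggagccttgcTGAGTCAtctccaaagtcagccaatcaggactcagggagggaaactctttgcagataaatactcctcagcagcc
These stretches lie at chr11:82101595-82101844 (plus strand), chr11:83578637-83578886 (minus strand) and chr5:92348890-92349139 (minus strand). Both strands of all 5 promoters were searched for 4 motifs, from 250 bases before to 50 bases after the start. They were an interferon-response motif (GAAA, any 2 bases, and GAAA again), the AP-1 motif TGANTCA, the TATA box TATAAA, and a kappaB motif (GGG, any 2 bases, then TTTCC or TTCCC). The Ccl12 promoter held a TATA box from -31 to -26 relative to the start and none of the other motifs. In the Ccl9 promoter an AP-1 match lay at -53 to -47 and a kappaB match, read on the opposite strand, at -35 to -26. It also held a pair of overlapping TATA matches, 1 on each strand, that together span -94 to -87, and another on the opposite strand from -224 to -219. The Cxcl10 promoter held the interferon-response motif at -213 to -204, a kappaB match at -103 to -94 and an AP-1 match at -74 to -68. Ccl3 and Ccl6 held none of the 4 motifs in this window. Over 32851 mouse promoters searched in the same window, 3.44% held the interferon-response motif and 7.81% the AP-1 motif. The TATA box was held by 13.6% and the kappaB motif by 3.24%. A match describes the letters and does not show that a factor binds there.

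Ccl2, Ccl7 and Ccl12 are ligands of Ccr2, the receptor through which blood monocytes are recruited. Of these 3, Ccl12 rose 3.47-fold. Ccl12 (ENSMUSG00000035352, chr11:82101845-82103400) stood at 37.0, 29.8, 40.0 and 21.5 CPM in plasma-negative replicates 1 to 4. In plasma-positive replicates 1 to 4 it stood at 100.1, 74.7, 121.9 and 153.2 CPM. The lowest plasma-positive library thus lay above the highest plasma-negative library, and the means were 32.1 ± 8.23 and 112 ± 33.3 CPM (SD, n = 4 each). The log2 change was 1.79 with a standard error of 0.26 (edgeR, adjusted p = 0.00732). With any single library left out it stayed between 1.61 and 1.95, and all 8 such fits called it (edgeR, adjusted p from 0.011 to 0.034).

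Ccl12 is a short gene, with exons that add up to 537 bases, and 1.9% of tested genes are as short or shorter. In these libraries the change went with exon length. Across 5176 genes above 32 CPM, the Spearman correlation of the log2 change with exon length was -0.457 (genes are not independent replicates), and -0.039 after a correction of each library for exon length and GC content. With that correction the log2 change of Ccl12 was 1.72 (SE 0.262; edgeR, adjusted p = 0.0208). Without plasma-positive replicate 3, the library rich in monocyte and neutrophil markers, Ccl12 was still called (edgeR, adjusted p = 0.0266). It was also called without replicate 2 (edgeR, adjusted p = 0.011). With both of these libraries out it was not (log2 change 1.97; edgeR, adjusted p = 0.0509), when 15 genes were called in all. Macrophages at the borders of the brain share many transcripts with microglia, and their 11 markers summed to 210.0 to 275 CPM in plasma-negative and 185 to 249 CPM in plasma-positive libraries. Stab1 made up most of that sum, at 205 to 263 CPM and 178 to 236 CPM. Mrc1, a mannose receptor of these macrophages, was at 1.90, 0, 0 and 2.36 CPM in plasma-negative and 1.76, 12.2, 1.42 and 15.3 CPM in plasma-positive replicates 1 to 4, a log2 change of 2.93 (SE 1.51; edgeR, adjusted p = 0.429). Ccl24 averaged 4.15 and 9.04 CPM, a log2 change of 1.13 (SE 0.77; edgeR, adjusted p = 0.585). Cd163, Lyve1, F13a1, Siglec1 and Cd209f were at 0 in all libraries. The part of such macrophages in the Ccl12 result was not tested.

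Ccl2 (ENSMUSG00000035385, chr11:82035571-82037453), the best-known monocyte attractant, was low and scattered. It had 73, 0, 62 and 7 counts in plasma-negative and 129, 3, 74 and 132 counts in plasma-positive replicates 1 to 4. These correspond to 0 to 3.61 CPM and 0.153 to 14.7 CPM. Replicate 2 was lowest in both groups, and the groups overlapped. The log2 change of 1.83 had a standard error of 1.31 (edgeR, adjusted p = 0.608), close to the estimate for Ccl12 but with a far wider error. Ccl7 (ENSMUSG00000035373, chr11:82045712-82047525) was absent from every plasma-negative library and from plasma-positive replicates 1 and 2, and it had 42 and 72 counts in replicates 3 and 4. A count of 0 allows up to 3 counts, which is 0.133 to 1.01 CPM in the plasma-negative libraries. These floors and all other count limits cover counting error only, because several reads can be copies of 1 molecule.

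Ccl3, Ccl4 and Ccl5 are inflammatory CC ligands, of which Ccl3 and Ccl5 bind Ccr1, a receptor of monocytes and other myeloid cells. Ccl5, an attractant of T cells and monocytes, was counted in the plasma-positive libraries alone, whereas Ccl3 and Ccl4 did not pass the test. Ccl5 (ENSMUSG00000035042, chr11:83525778-83530518) had 0 counts in each of the 4 plasma-negative libraries. Plasma-positive replicates 1 to 4 held 209, 151, 493 and 103 counts, or 23.0, 7.68, 25 and 11.5 CPM. Every plasma-positive library was therefore well above the highest floor of 1.01 CPM, that of the shallowest plasma-negative library. Against that floor, the plasma-positive mean of 16.8 ± 8.51 CPM (SD, n = 4) was at least 16.6-fold higher, and the lowest single library at least 7.6-fold higher. edgeR gave adjusted p = 0.00473, and adjusted p = 0.00163 when no filter on low counts was applied. As the gene passed the filter through the plasma-positive libraries alone, these values describe the counts and are no further support for them.

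T cells and natural killer cells make much Ccl5, so their markers are given beside it. Of 18 such markers, 11 had 0 counts in all 8 libraries, among them Cd3d, Cd3e, Cd3g, Cd8a, Cd4, Gzma, Gzmb and Ncr1. Lck (9 and 86 counts) and Trbc2 (23 and 1 counts) were counted in plasma-positive replicates 2 and 3 alone, and Trac (11 counts) and Nkg7 (14 counts) in plasma-positive replicate 3 alone. Prf1 (124 counts) was counted in plasma-negative replicate 2 alone. The summed markers ranged from 5.36 to 16.3 CPM in plasma-negative and from 0.670 to 21.5 CPM in plasma-positive libraries. Klrd1 and Cd247 were the 2 markers that passed the filter on low counts. In plasma-positive replicate 4, which held 103 Ccl5 counts, Cd247 was the one marker with a count (6 counts), and in replicate 1, which held 209, these were Klrd1 (60 counts) and Cd247 (11 counts). The part of lymphocytes in the Ccl5 result was not tested. The highest sum and the highest Ccl5 level both belonged to plasma-positive replicate 3, where markers of monocytes and neutrophils were also high (S100a8 at 5908, Ngp at 8481 and S100a9 at 3365 counts). Of the latter list, Ly6g, Retnlg and Mpo were at 0 in all libraries. Plasma-positive replicate 3 was highest for both lists, and replicate 2 was highest for markers of neurons and oligodendrocytes. Without these 2 libraries, Ccl5 had 209 and 103 counts in plasma-positive replicates 1 and 4 and was not called (edgeR, adjusted p = 0.0618). The summed T and natural killer cell markers were at 7.81 CPM in plasma-positive replicate 1, which stayed in, and 2.34 CPM in replicate 2.

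**Figure D2:**
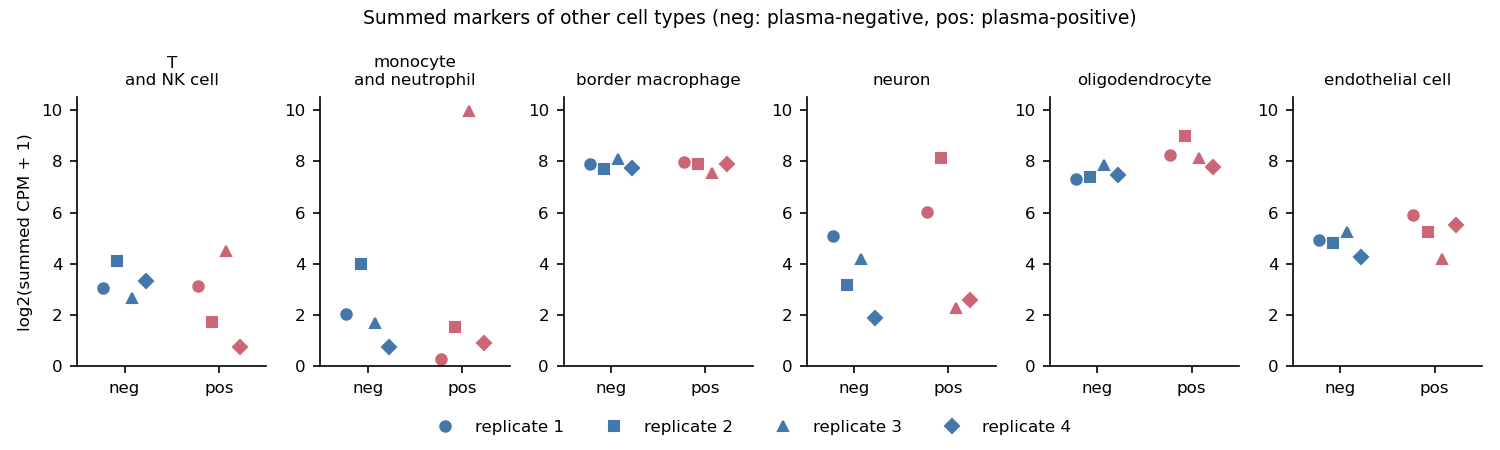
Summed markers of 6 other cell types, as log2(summed CPM + 1) on a shared y axis, in plasma-negative (blue, neg) and plasma-positive (red, pos) libraries with a symbol for each replicate number. Plasma-positive replicate 3 stands apart for monocyte and neutrophil markers and plasma-positive replicate 2 is highest for neuron and oligodendrocyte markers, whereas summed border macrophage markers, mostly Stab1, lie between 185 and 275 CPM in all 8 libraries.

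Ccl3 (ENSMUSG00000000982, chr11:83647844-83649355) varied more within the groups than between them. It stood at 29.2, 0.378, 17 and 10.1 CPM in plasma-negative and 42.2, 17.4, 7.31 and 20.8 CPM in plasma-positive replicates 1 to 4. The groups overlapped widely, and the log2 change was 0.62 with a standard error of 0.85 (edgeR, adjusted p = 0.829). It was 0.09 without plasma-positive replicate 1 and 1.26 without plasma-negative replicate 1. Ccl4 (ENSMUSG00000018930, chr11:83662584-83664683), its close relative and neighbour, stood at 25.8, 3.34, 18.4 and 5.38 CPM in plasma-negative and 18.6, 2.80, 21.4 and 36.3 CPM in plasma-positive libraries. Its log2 change was 0.56 with a standard error of 0.74 (edgeR, adjusted p = 0.818), from 0.09 without plasma-positive replicate 4 to 1.1 without plasma-negative replicate 1. Replicate 2 had the lowest Ccl4 level in both groups, as it had for Ccl2. The cytokine gene Tnf, named after its values were seen, had 198, 0, 75 and 10 counts in plasma-negative and 48, 3, 72 and 26 counts in plasma-positive replicates 1 to 4, so replicate 2 was lowest there too. Ccl3 shared this in the plasma-negative group only, where replicate 2 held 6 counts. In the plasma-positive group its lowest library was replicate 3.

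Ccl6 and Ccl9, rodent ligands of Ccr1 made by myeloid cells, were the most steadily counted of the 10, and neither passed the test. Ccl6 (ENSMUSG00000018927, chr11:83587882-83593087) stood at 167, 167, 217 and 271 CPM in plasma-negative and 376, 285, 313 and 362 CPM in plasma-positive replicates 1 to 4. All plasma-positive libraries were higher, though the gap from 271 to 285 CPM was small. The log2 change was 0.71 with a standard error of 0.17 (edgeR, adjusted p = 0.0596). Without plasma-negative replicate 4, its highest library in that group, Ccl6 was called (edgeR, adjusted p = 0.0227), and in the other 7 fits with a library left out it was not. Ccl9 (ENSMUSG00000019122, chr11:83572919-83578636) stood at 171, 191, 172 and 221 CPM in plasma-negative and 308, 236, 230.0 and 285 CPM in plasma-positive libraries. The groups again did not overlap, and the log2 change was 0.49 with a standard error of 0.14 (edgeR, adjusted p = 0.111). DESeq2, an alternative count test, called both genes (adjusted p = 0.00383 for Ccl6 and 0.0222 for Ccl9), and it called 963 genes in all against 187 by edgeR. Ccl6 was also called by edgeR with upper-quartile scaling (adjusted p = 0.0492), without the filter (adjusted p = 0.0438) and after thinning all libraries to the smallest total (adjusted p = 0.039), and by limma with voom weights (adjusted p = 0.0255). It was not called after the length and GC correction (log2 change 0.58, SE 0.151; edgeR, adjusted p = 0.141).

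Of the CXC ligands, Cxcl16 was at a moderate level in every library and Cxcl10 in a few libraries only. Cxcl16 is made as a membrane-bound protein that draws Cxcr6-bearing T cells once it is shed. It is encoded at chr11:70453983-70459984 (ENSMUSG00000018920), and 18.3% of its exon bases overlap exons of Zmynd15 on the other strand. Since the counting is not stated to use strand, reads of the 2 genes may be mixed there. Cxcl16 stood at 85.9, 87.0, 78.0 and 46.8 CPM in plasma-negative and 143, 122, 97.4 and 97.5 CPM in plasma-positive replicates 1 to 4. The groups did not overlap, and the log2 change of 0.62 with a standard error of 0.22 did not pass the test (edgeR, adjusted p = 0.215). After the length and GC correction the log2 change was 0.47 (SE 0.219; edgeR, adjusted p = 0.461).

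Cxcl10 (ENSMUSG00000034855, chr5:92346638-92348889), an interferon-induced ligand of Cxcr3, had 0 counts in all 4 plasma-negative libraries. In plasma-positive replicates 1 to 4 it had 1, 93, 0 and 145 counts, or 0.110, 4.73, 0 and 16.2 CPM. The groups overlapped at 0, and the gene was left out by the filter on low counts. When no filter was applied, edgeR gave adjusted p = 0.125 for Cxcl10 and adjusted p = 0.223 for Ccl7. DESeq2 called Cxcl10 (adjusted p = 0.00636) and not Ccl7 (adjusted p = 0.101). As for Ccl5, a call of a gene at 0 in all plasma-negative libraries adds nothing to its counts, and here 2 libraries carry it. Plasma-positive replicate 3, with the highest monocyte and neutrophil markers and the highest Ccl5 level, had no Cxcl10 count, and exons of Art3 on the other strand overlap 5.9% of the exon bases of Cxcl10.

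**Figure D3:**
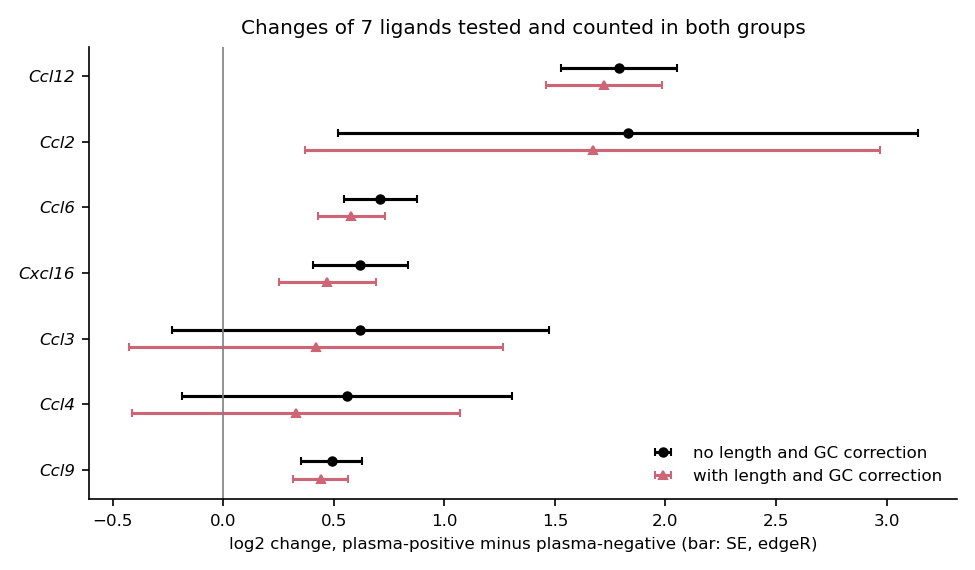
Log2 change in plasma-positive relative to plasma-negative microglia (x axis, edgeR) of the 7 tested ligands with counts in both groups, as points with bars of 1 standard error, without (black) and with (red) the correction for exon length and GC content. All points lie above 0 in both fits; Ccl12 is the single one called among them, and Ccl2, Ccl3 and Ccl4 have the widest bars.

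The counts of ligands per library followed these patterns. With more than 3 counts as the limit, plasma-negative replicates 1 to 4 held 7, 6, 7 and 7 of the 10 ligands, and plasma-positive replicates 1 to 4 held 8, 8, 9 and 10. The difference comes from Ccl5 in all plasma-positive libraries and from Ccl7 and Cxcl10 in 2 each. Only plasma-positive replicate 4 held all 10.

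Levels were compared between genes with the deposited RPKM values, which divide by exon length. In plasma-negative microglia the order by mean RPKM was Ccl6 at 83.9, Ccl9 at 45.4, Ccl12 at 43.6, Cxcl16 at 18.0, Ccl4 at 14.6, Ccl3 at 13.5 and Ccl2 at 1.48, with Ccl5, Ccl7 and Cxcl10 listed at 0. Ccl6 lay above Ccl9, and Ccl12 above Cxcl16, without overlap of their 4 libraries, while the other neighbours in this order overlapped. In plasma-positive microglia Ccl12 came first at 166 RPKM, followed by Ccl6 at 148, Ccl9 at 69.3, Cxcl16 at 30.4, Ccl4 at 23.7, Ccl3 at 22.8 and Ccl5 at 14.0. The last were Ccl2 at 5.69, Ccl7 at 2.48 and Cxcl10 at 1.83 RPKM. Ccl12 was above Ccl6 in 2 of the 4 plasma-positive libraries, so these neighbours did not differ beyond their spread. Ccl6 lay above Ccl9 and Ccl9 above Cxcl16 without overlap, and the others overlapped.

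Within a library, the share that each ligand took of the summed RPKM of the 10 does not depend on how that library was scaled. The share of Ccl12 was 13.2% to 22.6% in plasma-negative and 28.1% to 38.9% in plasma-positive libraries, with no overlap. Ccl6 took 28.5% to 49.9% and 27.4% to 35.1%, and Ccl9 took 17% to 25.5% and 12.7% to 17.1%. The summed RPKM itself was 176.7 to 239.5 in plasma-negative and 369 to 570.3 in plasma-positive libraries. The deposited scaling moved with that gap, since the gene counts made up 68.9% to 74.6% of the total that the RPKM values were divided by in plasma-negative and 81.4% to 84.2% in plasma-positive libraries.

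**Figure D4:**
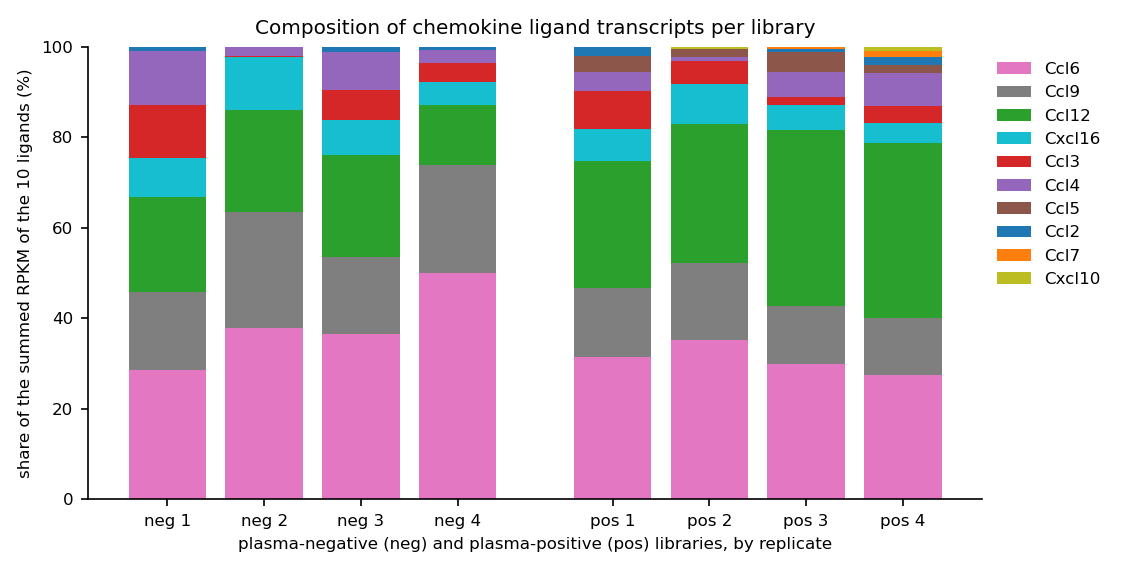
Share of each ligand in the summed RPKM of the 10 ligands (y axis, %) in each plasma-negative (neg) and plasma-positive (pos) library, stacked to 100%. The Ccl12 segment (green) takes 13.2% to 22.6% in the plasma-negative and 28.1% to 38.9% in the plasma-positive libraries, and Ccl5 (brown) appears in the plasma-positive libraries alone.

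Whether Ccl12 changed more than the other well-counted ligands was tested as a ratio within each library. Ccl12, Ccl6, Ccl9 and Cxcl16 had more than 50 counts in every library, which gives 6 ratios. The log2 ratio of Ccl12 to Ccl6 counts was -2.18, -2.49, -2.44 and -3.65 in plasma-negative and -1.91, -1.93, -1.36 and -1.24 in plasma-positive replicates 1 to 4. It was higher by 1.08 in plasma-positive cells, without overlap. Relative to Ccl9 the gain of Ccl12 was 1.31 and relative to Cxcl16 it was 1.15, again without overlap. Each of these 3 differences had p = 0.0286 (exact permutation test, two-sided, n = 4 per group), the smallest that 4 against 4 libraries allow, and an adjusted p of 0.0571 over the 6 ratios. The ratios among the other ligands moved less, by 0.24 for Ccl6 to Ccl9 (exact permutation p = 0.2), 0.07 for Ccl6 to Cxcl16 (exact permutation p = 0.857) and -0.16 for Ccl9 to Cxcl16 (exact permutation p = 0.743).

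All but Cxcl10 of the 10 genes lie on chromosome 11, and 8 of them form 2 blocks that are 1.41 Mb apart. The first, chr11:82035571-82116799 (81.2 kb), runs from Ccl2 over Ccl7, Ccl11 and Ccl12 to Ccl8. The second, chr11:83525778-83664683 (138.9 kb), runs from Ccl5 over Ccl9, Ccl6 and Ccl3 to Ccl4. The first block holds Ccl12, which was called higher. The second holds Ccl5, which was counted in the plasma-positive libraries alone and whose call adds nothing to its counts. The other ligands of the blocks did not pass the test or, like Ccl7, Ccl8 and Ccl11, were not tested. In the first block, Ccl11 had 28 counts and Ccl8 had 8 counts in plasma-positive replicate 3, and both had 0 counts in the other 7 libraries. That library had the highest monocyte and neutrophil markers. The nearest genes outside the blocks, Gm31522, Ccl1 and Heatr9, and the genes Gm17268 and Rpl9-ps1 inside them, had no count in any library. Wfdc17, beside Ccl4, had 0, 25, 0 and 0 counts in plasma-negative and 0, 6, 0 and 33 counts in plasma-positive libraries.

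**Figure D5:**
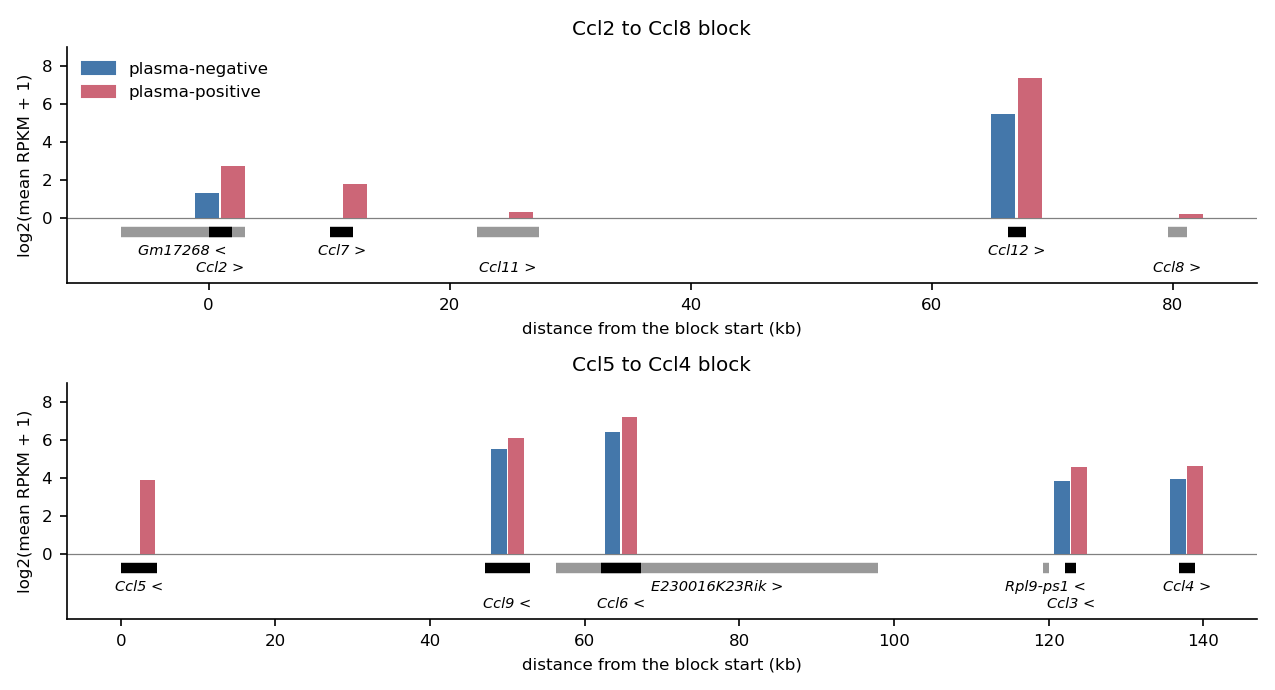
Genes of the 2 chromosome 11 blocks by distance from the block start (x axis, kb; black bars are the ligands described, grey bars other genes, and < or > gives the strand), with log2(mean RPKM + 1) in plasma-negative (blue) and plasma-positive (red) libraries on the y axis (mean of n = 4). Of the ligands described, Ccl5 and Ccl7 have a red column only, and Ccl12 has the tallest red column of the first block.

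Of 29 further ligands in the table, 14 had no count in any library, 4 passed the filter (Ccl24, Ccl25, Ccl27a and Cx3cl1) and none was called (edgeR, adjusted p of 0.493 or more). Ccl25, a T cell attractant of thymus and gut, had the most counts of them in every library but plasma-positive replicates 1 and 2, with means of 21.8 and 12.4 CPM, and its log2 change was -0.81 with a standard error of 0.47 (edgeR, adjusted p = 0.493). More than 3 counts were found for 3 to 5 of them in plasma-negative libraries and for 5, 7, 11 and 5 in plasma-positive replicates 1 to 4. In replicate 3, which held 11, the surplus included genes named after their values were seen. Cxcl9, another interferon-induced ligand of Cxcr3, had 413 counts there and at most 2 elsewhere. Cxcl13, a B cell attractant, had 141 counts there and Cxcl1, a neutrophil attractant, had 24 counts, both with 0 in the other 7 libraries.

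The receptors of these ligands are expressed by microglia and by recruited leukocytes. Of 23 chemokine receptor genes, 6 passed the filter and none was called higher or lower (edgeR, smallest adjusted p = 0.232). Ccr1, the receptor of Ccl3, Ccl5, Ccl6 and Ccl9, stood at 23.7, 8.37, 12.3 and 6.39 CPM in plasma-negative and 64.4, 24.0, 24.7 and 17.9 CPM in plasma-positive libraries. The groups overlapped, with a log2 change of 1.34 and a standard error of 0.51 (edgeR, adjusted p = 0.252), and without plasma-positive replicate 1 the change was 0.79.

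Ccr2, the receptor of Ccl2, Ccl7 and Ccl12, was counted in 3 libraries, with 71 and 220 counts in plasma-negative replicates 1 and 2 and 38 counts in plasma-positive replicate 2. Cxcr3, the receptor of Cxcl10, had 3, 0, 208 and 0 counts in plasma-negative and 0, 97, 0 and 74 counts in plasma-positive replicates 1 to 4. Cxcr6, the receptor of Cxcl16, had 3, 4, 0 and 24 counts and 1, 29, 0 and 0 counts. For none of the 3 did a group hold counts throughout. Cx3cr1, the receptor of Cx3cl1 and a hallmark of microglia, stood at 11551 ± 494 and 10738 ± 294 CPM (SD, n = 4), a log2 change of -0.11 that did not pass the test (edgeR, adjusted p = 0.232) and that was 0.02 when the RPKM values were used and -0.22 with library totals only, where it was called (edgeR, adjusted p = 0.00449). Ccrl2, which binds the attractant chemerin without signalling, had a log2 change of 0.37 with a standard error of 0.42 (edgeR, adjusted p = 0.779).

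Of 11 genes for enzymes that cut chemokines or release them from membranes, 7 had no count in any library. The 4 that were tested, Adam10, Adam17, Mmp2 and Mmp14, were not called (edgeR, smallest adjusted p = 0.234). Adam10, the main sheddase of Cxcl16, stood at 383 to 444 CPM in plasma-negative and 458 to 492 CPM in plasma-positive libraries, a log2 change of 0.23 with a standard error of 0.08 and without overlap.

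The NF-kB pathway drives transcription of many of these ligands in macrophages. Of its 23 listed genes, all tested, 1 rose and none fell, and 9 had a log2 change above 0, with a median of -0.15. Over all tested genes 0.844% were called higher, 50.4% had a log2 change above 0, and the median was 0.01. The gene that rose was Rela, a subunit of NF-kB. It stood at 161, 156, 172 and 141 CPM in plasma-negative and 270.3, 214, 234 and 221 CPM in plasma-positive replicates 1 to 4, without overlap. Its log2 change of 0.57 (SE 0.12; edgeR, adjusted p = 0.0423) was no longer called when any single library was left out (log2 change 0.50 to 0.62; edgeR, adjusted p from 0.073 to 0.128) or after the length and GC correction (log2 change 0.43; edgeR, adjusted p = 0.179). Nor was it called with relative log expression (log2 change 0.55; edgeR, adjusted p = 0.052) or library totals only (log2 change 0.46; edgeR, adjusted p = 0.0998).

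Interferon response genes were listed because Cxcl10 and Ccl5 are known targets of interferon. Of 24 tested, 1 rose, none fell and 18 had a log2 change above 0, with a median of 0.26, beside the 0.844% called higher, 50.4% above 0 and median of 0.01 over all tested genes. The one that rose was Ifitm3, which codes for a membrane protein that restricts viral entry. It stood at 3.67, 3.40, 2.62 and 11.8 CPM in plasma-negative and 34.7, 22.8, 54.2 and 41.6 CPM in plasma-positive replicates 1 to 4. The groups did not overlap, and the log2 change was 2.94 with a standard error of 0.52 (edgeR, adjusted p = 0.0196). With 1 library left out, 6 of 8 fits did not call it, with log2 changes of 2.70 to 2.98 and adjusted p from 0.0591 to 0.066 in edgeR, while leaving out plasma-negative replicate 4 or plasma-positive replicate 2 kept the call.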

How the data were processed

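RNA of 4 plasma-negative and 4 plasma-positive microglia samples was measured, grouped and numbered by their titles. The authors deposited 1 table of read counts per gene and 1 of RPKM values (reads scaled to exon length and library size), per the file headers. The submitters' processing notes name bcl2fastq, Trim Galore, STAR, HTSeq and mm10, with no versions or settings. Gene identifiers matched GENCODE M21 for 35546 of 35583 genes, and exon lengths and GC content came from it.

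Counts were tested in R 4.3.3 with edgeR 4.0.16 (TMM, default expression filter by group, quasi-likelihood F test of group, Benjamini-Hochberg adjustment over 13277 genes, called at an adjusted p under 0.05). Without adjustment, 1831 genes had p under 0.05. The standard error was taken as log2 change over the root of the F statistic. Means are given with SD. Ratios were tested by exact permutation over the 70 assignments of libraries to groups. Alternatives were other scalings and filters, DESeq2 1.42.0, limma 3.58.1 on log2(RPKM + 1) and log2(RPKM + 0.1) and with voom weights, thinning to the smallest total, loess offsets per library for exon length and GC content (span 0.3), the replicate number as a block and leaving out each library. Totals of 2963094 to 21422738 counts set the precision, and 3 counts were the floor.

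Named genes are all 10 ligands, the receptors Ccr1, Ccr2, Cxcr3, Cxcr6, Cx3cr1 and Ccrl2, the called genes among the other ligands, and up to 4 called genes per direction of each other pathway list; 1 item is not reported here. Markers and some further genes are named outside this rule, chosen after their values were seen. Members and lists were chosen with earlier results of these data known.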

Additional observations from a re-analysis of the deposited data

Results flagged for a closer look

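In 6 of 33 sets of 4 libraries examined (ligands, named receptors and other named genes, in each group), 1 library lay far from the other 3. The measure used flags about 5% of sets by chance when values are normally distributed. Sets near 0 in all but 1 library, as for Ccr2, Cxcr3 and Cxcr6, are flagged more readily. The 6 of 33 therefore cannot be set against that 5%. None of the 6 concerned a ligand. Ccr1 stood at 64.4 CPM in plasma-positive replicate 1, with the next library at 24.7 CPM. Ccr2 stood at 1.93 CPM in plasma-positive replicate 2 and at 0 in the other 3. Cxcr3 stood at 12.1 CPM in plasma-negative replicate 3, with the next library at 0.133 CPM. Cxcr6 stood at 8.08 CPM in plasma-negative replicate 4, where the next library had 0.252 CPM, and at 1.47 CPM in plasma-positive replicate 2, where the next had 0.110 CPM. Ifitm3 stood at 11.8 CPM in plasma-negative replicate 4, with the next library at 3.67 CPM, and without that replicate its log2 change was 3.57 instead of 2.94.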

How the results depend on the processing

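The 2 calls among the ligands, Ccl12 and Ccl5, were made under every other scaling and filter tried, under DESeq2 and limma, after thinning and with each library left out. For Ccl5 this adds nothing to its counts, because it passed the filter on low counts through the plasma-positive libraries alone. DESeq2 called 5 ligands (with Ccl6, Ccl9 and Cxcl10 added, the last at 0 in all plasma-negative libraries like Ccl5) and limma on RPKM values called 4 at either pseudocount. With each library left out, 2 or 3 ligands were called. No ligand was called with the length and GC correction combined with the replicate block (log2 change 1.70 and edgeR adjusted p = 0.0669 for Ccl12, and edgeR adjusted p = 0.0688 for Ccl5), nor with plasma-positive replicates 2 and 3 both left out, a setting chosen after seeing the data, where 0 ligands and 15 genes were called. The cause was not tested.

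The numbers of the replicates did not visibly pair the libraries. Deviations from the group means correlated across genes by 0.0109 to 0.0315 for libraries of the same number. The average for different numbers was -0.00556. It is largely fixed by the same-number values, because deviations cancel out within each group, and is no separate comparison. With a replicate block in edgeR, the calls fell to 74, among them Ccl12 (edgeR, adjusted p = 0.0401) and Ccl5 (edgeR, adjusted p = 0.0412) and not Rela (edgeR, adjusted p = 0.097), and 17 genes with the correction and the block together.

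Over all genes, 187 calls became 963 with DESeq2, 447 and 432 with limma on log2(RPKM + 1) and log2(RPKM + 0.1), 75 with the length and GC correction, and 66 to 203 with a library left out. The lowest, 66, came without plasma-negative replicate 3. Of 187 calls 112 were higher, against 64 of 227 with library totals only, a scaling that moved the median change over all genes to -0.11. It was 388 of 447 and 370 of 432 on the 2 RPKM scales, which moved that median to 0.11 and 0.16, and 56 of 75 with the length and GC correction. Cx3cr1, at -0.11, was 0.02 on both RPKM scales and -0.22 with library totals only, where it was called (edgeR, adjusted p = 0.00449). Ccl2, Ccl7 and Cxcl10 had few counts, which limits what can be said of them; libraries at 0 were not always the shallow ones.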
